A study of Homo sapiens with 4 samples.

Results

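The 50 genes described here encode the proteins that mark, license, open and copy DNA replication origins and that travel with the replication fork. They were taken by gene name from the 48162 genes of an RNA-seq table, and all 50 were among the 12080 genes with a mean of at least 1 FPKM (fragments scaled to gene length and to the library's total). The cells were MDA-MB-231, an established human triple-negative breast cancer line of mesenchymal type, grown in DMEM with 10% FBS. A pair of libraries came from cells given vehicle control, and the other pair from cells given MGH-CP1, a small molecule that blocks the palmitoylation of TEAD transcription factors, at 10 µM for 24 h per the labels, while the study's methods print 10 mM. The question was how the RNA of this line changes when TEAD, the DNA-binding partner of YAP and TAZ, is inhibited. Nothing in the sources says that the libraries of a group came from separate cultures, so the p-values measure only the spread between these samples, which may be technical.

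In each cell cycle the origin recognition complex (ORC) binds origins and, with CDC6 and CDT1, loads the MCM2-7 helicase in an inactive form. At the start of S phase the DBF4-CDC7 kinase and cyclin-dependent kinases turn the loaded helicase, together with CDC45 and GINS, into an active fork. Polymerase alpha-primase then makes primers, RFC loads the PCNA clamp, polymerases delta and epsilon extend the strands, and RPA coats the exposed single strands. Transcription of many of these genes is known to rise before S phase through E2F factors.

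Between 17577930 and 25508824 fragments per library lay behind the FPKM values, with fewer in the MGH-CP1 libraries (17577930 and 17997221) than in the vehicle control libraries (25455533 and 25508824). Each replication gene had between 155 and 13181 fragments in each library, and the intervals given here cover the spread between libraries. Mitochondrial genes held 0.447% and 0.418% of the fragments in vehicle control and 1.57% and 1.53% with MGH-CP1. The line's 5 markers were present in all libraries. VIM at 259 to 281 FPKM and CD44 at 198 to 221 FPKM were not called, while AXL (log2 fold change −0.76), CAV1 (−0.49) and EGFR (−0.46) were called lower and kept at least 149, 272 and 34.9 FPKM. Of the markers of other cell types, ESR1, PGR, FOXA1 and PTPRC were at 0.0321 FPKM or less and CD3E and CDH5 were at 0. The epithelial markers EPCAM (12.4 to 16.4 FPKM) and GATA3 (4.17 to 5.65 FPKM) were measured and not called, CDH1 was at 0.289 to 0.638 FPKM, and CD14 was called higher, from 2.44 and 1.79 to 4.07 and 3.29 FPKM. The part of mitochondrial RNA and of these markers in the results below was not tested, but with totals that leave out mitochondrial genes the 50 replication genes gave the same counts of calls.

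Many of these genes carry letters of an E2F site close to their start. RefSeq promoters (GRCh38.p14, 250 bases before to 50 after the start, 300 in all) matched 43 of the 50 genes. The letters TTTCCCGC, TTTGGCGC or TTTCGCGC, read on both strands, stood in 22 of these 43 genes (51.2%), against 5.75% of the 8492 tested genes with a promoter entry and 3.30% of all 27305 genes in the reference. The stretches below are shown because their genes span the stages of replication, from licensing to the fork. Each holds 28 bases, 5′ to 3′ on the gene's strand, with a single match of the E2F letters, or their reverse complement, in capitals. The MCM6 and TIPIN stretches hold another match that overlaps the capitals and ends in lower case.
CDT1 (licensing, chr16:88803744-88803771, plus strand): cagggcgcccGCGGGAAAtttggcggga
GMNN (licensing inhibitor, chr6:24775323-24775350, plus strand): ctgggtcggtTTTGGCGCgctctcactt
MCM3 (helicase, chr6:52284899-52284926, minus strand): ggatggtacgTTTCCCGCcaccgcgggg
MCM6 (helicase, chr2:135876578-135876605, minus strand): gggctttgcaTTTGGCGCgaaatccctt
GINS2 (helicase partner, chr16:85688968-85688995, minus strand): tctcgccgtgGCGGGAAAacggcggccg
CDC7 (firing kinase, chr1:91501034-91501061, plus strand): tgcagttcctTTTCCCGCcccccttcgg
POLA1 (priming polymerase, chrX:24693771-24693798, plus strand): tcatcacaggGCGCCAAAcgcgcgtccg
RFC3 (clamp loader, chr13:33818084-33818111, plus strand): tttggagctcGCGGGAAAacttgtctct
PCNA (clamp, chr20:5126664-5126691, minus strand): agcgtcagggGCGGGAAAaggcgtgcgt
LIG1 (ligase, chr19:48170441-48170468, minus strand): cttcacccctTTTCCCGCcctcctccca
TIPIN (fork protection, chr15:66356734-66356761, minus strand): cccgcacggaTTTGGCGCcaaacgctgc

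Replication genes fell after MGH-CP1 in each of the 12 groups by role described below. Of the 50 genes, 46 were called lower and 0 higher (limma on log2(FPKM + 1), two-sided, Benjamini-Hochberg adjusted p under 0.05 over all 12080 genes), against 23.8% of all genes tested called lower and 27.1% called higher. None of the 50 was higher at an unadjusted p under 0.05 either, and voom on the fragment counts recovered from the FPKM values also called 0 higher. The calls rest on limma's sharing of variance between genes: with each gene's own variance alone, 0 of the 50 passed, the smallest adjusted p was 0.0549, and 43 had an unadjusted p under 0.05. The 4 genes not called were ORC2, ORC4, RPA3 and CHTF18. In 47 genes both MGH-CP1 libraries lay below both vehicle control libraries, a pattern found in 37.4% of all genes tested, and 39 were called lower by at least 0.5 on the log2 scale, against 6.16% of all genes. The median log2 fold change of the 50 genes was −0.64 ± 0.05 (SD over the 4 pairs of libraries), beside 0.01 over all genes tested. The 4 pairs set each MGH-CP1 library against each vehicle control library, so they share libraries and are not independent.

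Summed over the 50 genes, the level was 1645 ± 6.46 FPKM in vehicle control and 1046 ± 69.0 FPKM with MGH-CP1 (SD, n = 2 each). As a share of all fragments, the genes held 0.482% and 0.481% in vehicle control and 0.292% and 0.321% with MGH-CP1. Most falls lay within a narrow range: 21 genes stood at 0.6 to 0.7 times their vehicle control level and 14 at 0.5 to 0.6 times. The 4 genes at or under 0.5 times were DSCC1, CLSPN, MCM10 and POLA1. These are levels in bulk RNA, in which fewer cells in S phase and less of these RNAs per cell cannot be told apart.

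**Figure D1:**
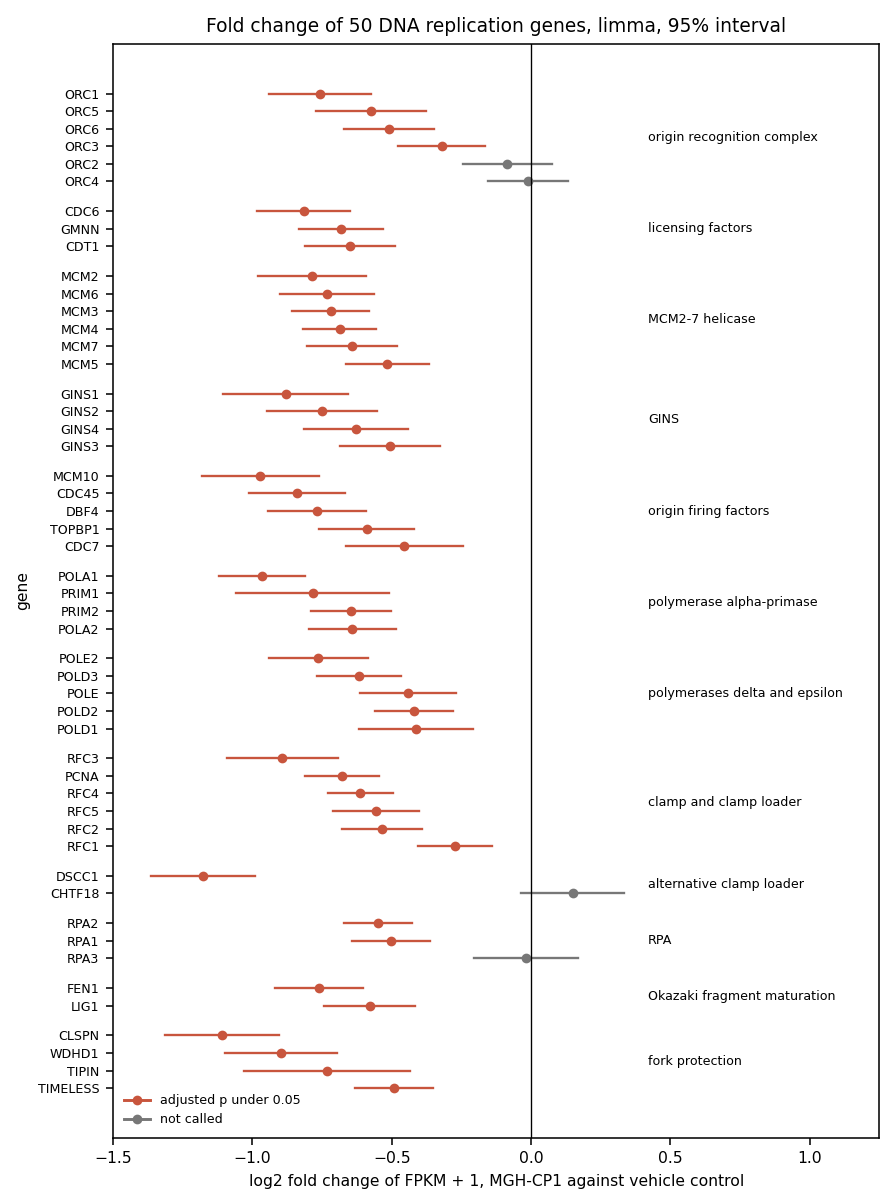
Log2 fold change of FPKM + 1 (MGH-CP1 against vehicle control, 2 libraries each) for the 50 genes, grouped by complex, with 95% intervals from limma as lines. The 46 genes called lower lie left of 0, from −1.18 for DSCC1 to −0.27 for RFC1, while the intervals of ORC2, ORC4, RPA3 and CHTF18 cross 0.

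The order of the levels changed little among the abundant genes. The clamp PCNA was the most abundant, at 180 and 168 FPKM in vehicle control and 104 and 113 FPKM with MGH-CP1. MCM3, MCM7, POLD2, MCM4, FEN1, GMNN and RPA1 followed in this order by mean FPKM in both groups. PCNA and MCM3 were near each other in vehicle control (152 and 163 FPKM for MCM3), and the ranges of these neighbours did not overlap. Those of MCM4 and FEN1, and those of MCM2 and MCM6, overlapped in vehicle control. With MGH-CP1, MCM4 overlapped FEN1, FEN1 overlapped GMNN and GMNN overlapped RPA1, so the order of these neighbours was not resolved. Among the lower genes the order shifted: the checkpoint mediator CLSPN moved from rank 19 of 50 by mean FPKM to rank 32, and RFC3 from rank 23 to rank 33. The larger moves were upward, in ORC4 (rank 38 to rank 19) and RPA3 (rank 40 to rank 20), which were not called. The lowest value of any replication gene was 4.01 FPKM, for GINS3 with MGH-CP1.

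**Figure D2:**
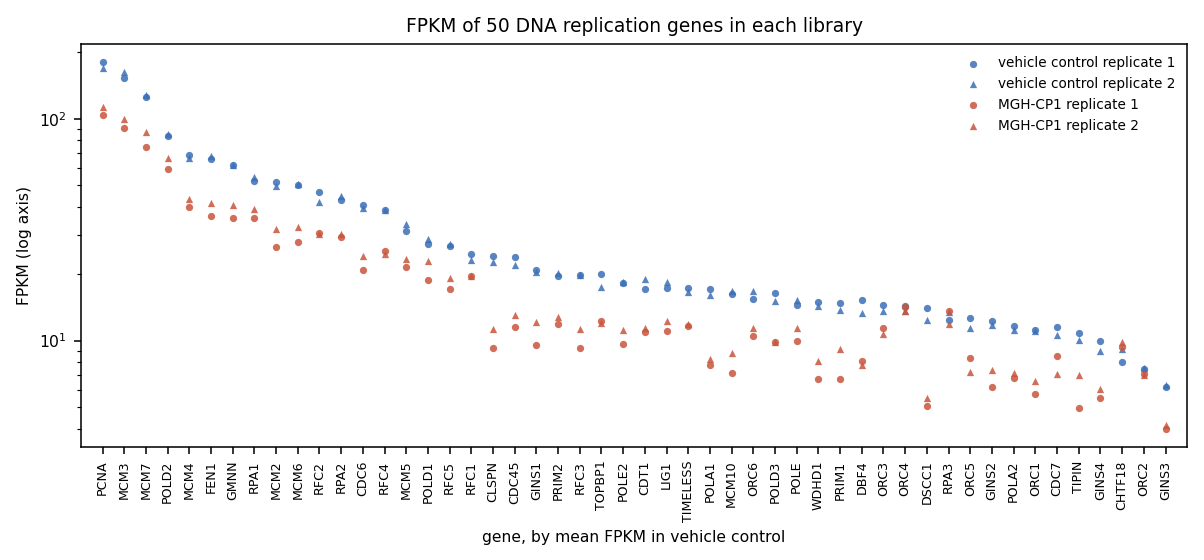
FPKM on a log axis for each of the 50 genes in each of the 4 libraries, ordered by mean FPKM in vehicle control. The red MGH-CP1 points lie below the blue vehicle control points along nearly the whole range, from PCNA to GINS3, and meet or pass them at ORC4, RPA3 and CHTF18.

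ORC was the least even of the larger complexes. Of its 6 genes, 4 were called lower, and the median log2 fold change was −0.42. ORC1, the ATPase subunit whose protein cycles with the cell cycle in human cells (ENSG00000085840, hg19 chr1:52838501-52870131), had 11.1 and 11.0 FPKM in vehicle control and 5.72 and 6.60 FPKM with MGH-CP1. The groups did not overlap, and the log2 fold change was −0.76 (SE 0.08, limma adjusted p = 0.000189). ORC5 had 12.7 and 11.4 FPKM in vehicle control and 8.35 and 7.21 FPKM with MGH-CP1, again without overlap (log2 fold change −0.57, SE 0.09, adjusted p = 0.000976). ORC6, the subunit least like the others, and ORC3 were also called lower, at 68.4% and 78.6% of their vehicle control levels.

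The core subunits ORC2 and ORC4 did not pass the test. ORC2 had 7.44 and 7.55 FPKM in vehicle control and 7.04 and 6.99 FPKM with MGH-CP1. The groups lay close together without overlap, and the 95% interval of the log2 fold change (−0.08, SE 0.07, limma adjusted p = 0.336) ran from −0.24 to 0.07. ORC4 had 14.3 and 13.6 FPKM in vehicle control and 14.1 and 13.6 FPKM with MGH-CP1. Its groups overlapped, and the interval of its log2 fold change (−0.01, SE 0.06, adjusted p = 0.895) ran from −0.15 to 0.13, which leaves out a fall of the size seen for ORC1. Within each library, ORC1 stood at 1.498 and 1.455 times ORC2 in FPKM in vehicle control and at 0.813 and 0.943 times ORC2 with MGH-CP1. By the same reckoning ORC4 made up 19.0% and 18.5% of the summed ORC FPKM in vehicle control and 24.8% and 24.1% with MGH-CP1.

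All 3 licensing factors were called lower, by a median of −0.68 on the log2 scale. CDC6, the ATPase that joins ORC to load the helicase, had 40.8 and 39.7 FPKM in vehicle control and 20.8 and 24.1 FPKM with MGH-CP1 (log2 fold change −0.82, SE 0.07, limma adjusted p = 9.07e-05). GMNN, geminin, the inhibitor that binds CDT1 and blocks relicensing, had 62.0 and 61.8 FPKM in vehicle control and 35.8 and 40.8 FPKM with MGH-CP1 (−0.68, SE 0.07, adjusted p = 0.000121). Neither gene's groups overlapped. CDT1, the loader that geminin holds back, stood at 61.7% of its vehicle control level. The ratio of CDT1 to GMNN was 0.276 and 0.308 in vehicle control and 0.304 and 0.280 with MGH-CP1, and these ranges overlapped.

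The 6 genes of the MCM2-7 helicase, the ring that unwinds DNA at the fork, were all called lower, and their median log2 fold change was −0.70. MCM2 (ENSG00000073111, hg19 chr3:127317066-127341276) had 51.8 and 49.5 FPKM in vehicle control and 26.3 and 31.8 FPKM with MGH-CP1 (log2 fold change −0.79, SE 0.08, limma adjusted p = 0.000198). MCM6 had 50.1 and 50.7 FPKM in vehicle control and 27.7 and 32.4 FPKM with MGH-CP1 (−0.73, SE 0.07, adjusted p = 0.000144). In both genes the groups were apart. MCM3, MCM4 and MCM7 fell to 60.5%, 61.7% and 63.9% of vehicle control, and MCM5 to 69.0%, the mildest fall of the ring. The make-up of the ring's RNA moved little: MCM3 was 32.5% of the summed MCM2-7 FPKM in vehicle control and 31.9% with MGH-CP1, MCM4 was 13.9% in both, and MCM5 was 6.66% and 7.46%.

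GINS, the 4-subunit partner that joins CDC45 and MCM2-7 in the active helicase, was called lower in all 4 genes. GINS1 had 20.8 and 20.4 FPKM in vehicle control and 9.53 and 12.1 FPKM with MGH-CP1 (log2 fold change −0.88, SE 0.10, limma adjusted p = 0.000231). GINS2 had 12.3 and 11.7 FPKM in vehicle control and 6.17 and 7.34 FPKM with MGH-CP1 (−0.75, SE 0.09, adjusted p = 0.000273). Neither gene's groups overlapped, and GINS4 and GINS3 stood at 61.0% and 65.6% of vehicle control.

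The 5 origin firing factors were all called lower, and the median of their log2 fold changes was −0.77. MCM10, a scaffold needed for activation of the loaded helicase, had 16.2 and 16.7 FPKM in vehicle control and 7.12 and 8.76 FPKM with MGH-CP1, 48.3% of the vehicle control level (log2 fold change −0.97, SE 0.09, limma adjusted p = 0.000109). CDC45 had 23.7 and 21.9 FPKM in vehicle control and 11.5 and 13.1 FPKM with MGH-CP1 (−0.84, SE 0.07, adjusted p = 9.05e-05). Both were well separated between groups. DBF4, the regulatory subunit of the firing kinase, stood at 55.7% of vehicle control, the catalytic subunit CDC7 at 70.7% and TOPBP1, a scaffold of helicase activation and of the checkpoint, at 64.5%. DBF4 was 1.32 and 1.26 times CDC7 in vehicle control and 0.950 and 1.10 times CDC7 with MGH-CP1.

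Among the polymerases the priming enzyme fell more in median than the 2 extending enzymes. All 4 genes of polymerase alpha-primase were called lower, by a median of −0.71 on the log2 scale. POLA1, its catalytic subunit, had 17.2 and 16.1 FPKM in vehicle control and 7.77 and 8.30 FPKM with MGH-CP1 (log2 fold change −0.97, SE 0.07, limma adjusted p = 3.67e-05). PRIM1, the primase catalytic subunit, had 14.8 and 13.8 FPKM in vehicle control and 6.74 and 9.19 FPKM with MGH-CP1 (−0.78, SE 0.12, adjusted p = 0.00106). The groups were apart in both, although the MGH-CP1 libraries of PRIM1 were far from each other. POLA2 and PRIM2, the accessory subunits, stood at 61.0% and 62.1% of vehicle control, and the table types PRIM2 as a processed transcript.

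All 5 genes of polymerases delta and epsilon were called lower, by a median of −0.44 on the log2 scale, and the difference from polymerase alpha-primase was not tested. POLE2, an accessory subunit of the leading-strand polymerase, had 18.3 and 18.3 FPKM in vehicle control and 9.61 and 11.2 FPKM with MGH-CP1 (log2 fold change −0.76, SE 0.08, limma adjusted p = 0.000145). POLD3, an accessory subunit of the lagging-strand polymerase, had 16.3 and 15.1 FPKM in vehicle control and 9.87 and 9.87 FPKM with MGH-CP1 (−0.62, SE 0.07, adjusted p = 0.000193). The catalytic subunits fell less, POLE to 72.0% and POLD1 to 74.5% of vehicle control, as did POLD2 at 74.5%.

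The clamp and its loader were called lower in all 6 genes, by a median of −0.58 on the log2 scale. RFC3 had 19.7 and 19.8 FPKM in vehicle control and 9.23 and 11.2 FPKM with MGH-CP1 (log2 fold change −0.89, SE 0.09, limma adjusted p = 0.000127). For PCNA, whose values stand above, the log2 fold change was −0.68 (SE 0.06, adjusted p = 7.49e-05). Both genes were separated between the groups. RFC4, RFC5 and RFC2 stood at 64.5%, 66.9% and 68.2% of vehicle control. RFC1, the large subunit specific to the PCNA loader, fell least of the 46 genes called, to 82.1%. Within each library RFC3 was 0.8004 and 0.8586 times RFC1 in vehicle control and 0.471 and 0.574 times RFC1 with MGH-CP1.

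The alternative clamp loader, in which CHTF18 takes the place of RFC1 and DSCC1 is an accessory subunit, held the fall of greatest size and the only rise in mean of the 50 genes. DSCC1 (ENSG00000136982, hg19 chr8:120846216-120868250) had 14.01 and 12.4 FPKM in vehicle control and 5.07 and 5.51 FPKM with MGH-CP1. The groups were far apart, and the log2 fold change of −1.18 (SE 0.08, limma adjusted p = 3.45e-05) ranked 4 among the falls of all 12080 genes. CHTF18 (ENSG00000127586, hg19 chr16:838046-850737) had 7.98 and 9.18 FPKM in vehicle control and 9.35 and 9.86 FPKM with MGH-CP1. Its groups did not overlap, but the test was not passed (log2 fold change 0.15, SE 0.08, adjusted p = 0.158, 95% interval −0.04 to 0.34). The ratio of DSCC1 to CHTF18 was 1.75 and 1.36 in vehicle control and 0.542 and 0.558 with MGH-CP1.

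RPA, the trimer that coats single-stranded DNA, was called lower in its large and middle subunits only. RPA2 had 43.1 and 44.9 FPKM in vehicle control and 29.1 and 30.4 FPKM with MGH-CP1 (log2 fold change −0.55, SE 0.05, limma adjusted p = 0.000121). RPA1, the main DNA-binding subunit, had 52.5 and 54.3 FPKM in vehicle control and 35.5 and 39.4 FPKM with MGH-CP1 (−0.50, SE 0.06, adjusted p = 0.000353). RPA3, the small subunit (ENSG00000106399, hg19 chr7:7676149-7758238), had 12.4 and 13.5 FPKM in vehicle control and 13.6 and 11.9 FPKM with MGH-CP1. The groups of RPA1 and RPA2 were apart and those of RPA3 overlapped (−0.02, SE 0.08, adjusted p = 0.868, 95% interval −0.20 to 0.17). RPA3 made up 11.5% and 11.9% of the summed RPA FPKM in vehicle control and 17.4% and 14.6% with MGH-CP1.

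**Figure D3:**
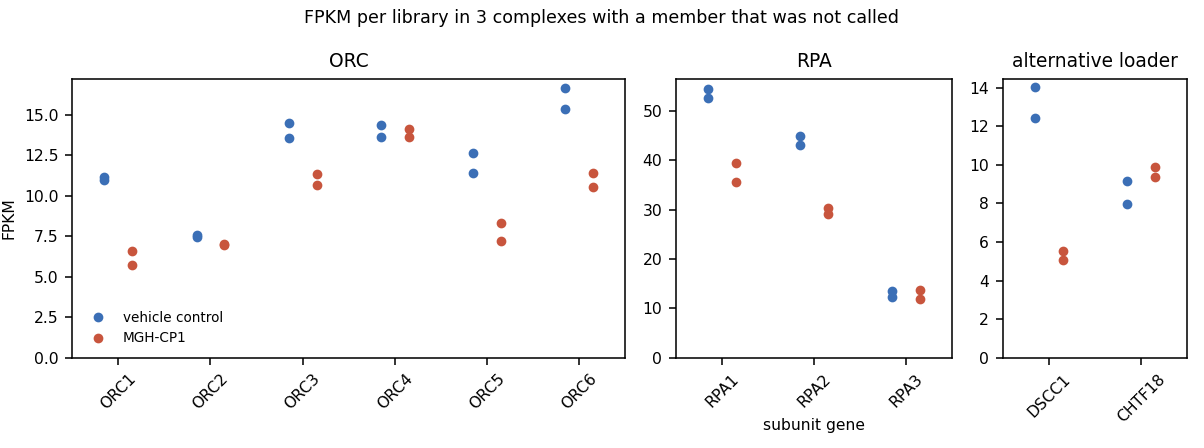
FPKM in each library (2 points per group) of the subunit genes of ORC, RPA and the alternative clamp loader, with each panel's axis starting at 0. The vehicle control and MGH-CP1 points lie apart for ORC1, RPA1, RPA2 and DSCC1, lie within or next to each other for ORC2, ORC4 and RPA3, and are in the opposite order for CHTF18.

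Some of the values could hold reads of a neighbouring gene. The preparation described in the labels names no step that marks the strand, and how strand was counted is not given in the sources used here. For 13 of the 50 genes the table lists an overlapping gene with at least 10% as many fragments, among them 3 of the 4 genes not called. RPA3 shares 77897 bases with AC006465.3 on the opposite strand (417, 390, 307 and 260 fragments in the order vehicle control 1 and 2, MGH-CP1 1 and 2). CHTF18 shares 352 bases with RPUSD1 and ORC4 shares 568 bases with MBD5, also on the opposite strand. Their part in the 3 values was not tested. On the same strand, FEN1 shares 4265 bases with FADS2, whose fragments were up to 348% of its own. POLE shares 59950 bases with GOLGA3 (up to 167.5%) and 36221 with ANKLE2 (up to 104.6%). PRIM1 shares 7 bases with NACA (up to 3403%) and POLD3 shares 4683 with AP001372.2 (up to 10.5%). What these overlaps add to the values of FEN1, POLE, PRIM1 and POLD3 was not tested.

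Both genes of Okazaki fragment maturation were called lower. FEN1, the nuclease that removes flaps left by primer displacement, had 65.7 and 68.0 FPKM in vehicle control and 36.4 and 41.8 FPKM with MGH-CP1 (log2 fold change −0.76, SE 0.07, limma adjusted p = 9.59e-05). LIG1, the ligase that seals the fragments, had 17.3 and 18.4 FPKM in vehicle control and 11.0 and 12.3 FPKM with MGH-CP1 (−0.58, SE 0.07, adjusted p = 0.000369). In neither did the groups overlap.

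The 4 fork protection genes had the lowest median log2 fold change of the 12 groups, −0.81, and all were called lower. CLSPN, claspin, which links the fork to the checkpoint kinase CHEK1 (ENSG00000092853, hg19 chr1:36185819-36235568), had 24.0 and 22.5 FPKM in vehicle control and 9.25 and 11.3 FPKM with MGH-CP1. Its groups were far apart, with a log2 fold change of −1.11 (SE 0.09, limma adjusted p = 6.05e-05). WDHD1, which ties polymerase alpha to the helicase, had 14.9 and 14.4 FPKM in vehicle control and 6.72 and 8.10 FPKM with MGH-CP1, also without overlap (−0.90, SE 0.09, adjusted p = 0.000127). TIPIN stood at 57.1% of vehicle control and TIMELESS, with which it forms a complex, at 69.4%. The ratio of CLSPN to TIMELESS was 1.38 and 1.36 in vehicle control and 0.797 and 0.951 with MGH-CP1.

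The MGH-CP1 libraries differed from each other in these genes. MGH-CP1 replicate 2 was above replicate 1 in 38 of the 50 genes (76.0%), by a median of 0.12 on the log2 scale, against 49.0% of all genes tested with a median of −0.00. The same count for vehicle control was 23 of 50. Against the vehicle control mean, the median change was −0.68 in MGH-CP1 replicate 1 and −0.60 in replicate 2, and 47 and 49 of the 50 genes were below 0. TIPIN and PRIM1 differed most between the replicates, at 4.94 and 7.01 FPKM and at 6.74 and 9.19 FPKM. CDC7 and ORC5 were among the genes that went the other way (8.50 and 7.09 FPKM, and 8.35 and 7.21 FPKM). Every library left out in turn still gave 46 genes lower and 0 higher.

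**Figure D4:**
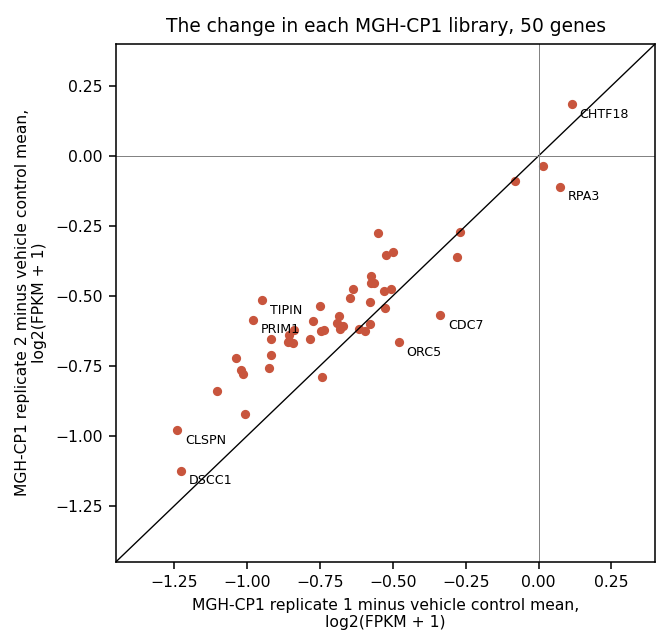
Difference from the vehicle control mean in log2(FPKM + 1) for each of the 50 genes, in MGH-CP1 replicate 1 (x axis) and replicate 2 (y axis), with the line of equality. Most points lie above the line, where the fall was smaller in replicate 2, and CDC7, ORC5 and RPA3 are among those below it.

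The replication genes with E2F letters in the promoter, as in the stretches printed above, were compared with those without as a description. All 22 with the letters were called lower, with log2 fold changes from −1.11 (CLSPN) to −0.32 (ORC3) and a median of −0.70. Of the 21 with a promoter entry and no such letters, 18 were called lower, with a median of −0.56, and ORC2, ORC4 and CHTF18 were the others. MCM10, ORC1 and WDHD1 lacked these exact letters in their entries and fell by 0.97, 0.76 and 0.90 on the log2 scale. Outside the replication genes, 37.1% of 466 tested genes with the letters were called lower, against 24.3% of 7985 without them. A match of letters is not a bound site, and these searches say nothing about E2F itself.

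The NF-Y box CCAAT stood in 58.1% of the 43 genes and 43.6% of tested genes, and the CHR letters TTTGAA or TTCGAA in 4.65% and 15.3%. The TEAD letters GGAATG stood in 8 of the 43 genes (18.6%), against 15.1% of tested genes and 16.7% of all genes, all on either strand. Outside the replication genes, 33.3% of 1301 tested genes with the CHR letters were called lower, against 23.5% of 7150 without them. The same shares were 26.5% and 23.8% for the NF-Y box and 27.5% and 24.5% for the TEAD letters. The 4 genes with both the TEAD and the E2F letters were CDC7, GINS1, MCM7 and POLA2. GINS1 and POLA2 are shown because both kinds of letters stand in the same promoter entry, with the TEAD letters in capitals and the same build and strand rule as above.
GINS1 (chr20:25407596-25407623, plus strand): ccgcccctcttGGAATGcggctgagcgg
POLA2 (chr11:65261851-65261878, plus strand): cgtggggttccGGAATGagccggggaaa
The 8 genes with these letters had a median log2 fold change of −0.64, and the 35 without them −0.65.

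**Figure D5:**
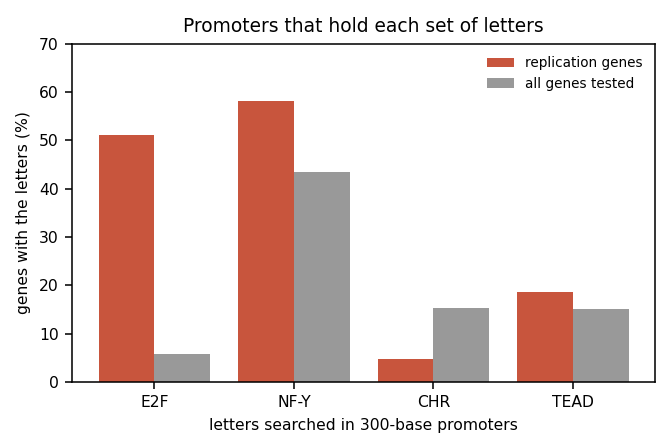
Percentage of genes whose RefSeq promoter holds each group of letters, for the 43 replication genes with an entry (red) and the 8492 tested genes with an entry (grey), on an axis from 0. The bars differ most for E2F (51.2% against 5.75%) and least for TEAD (18.6% against 15.1%).

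Other genes that work at the fork were less uniform. Of 25 fork partners, 15 (60.0%) were called lower and 2 (8.0%) higher, against 23.8% and 27.1% of all genes tested. The median over the list was −0.47 on the log2 scale. ATAD5, which unloads PCNA, had 6.30 and 5.86 FPKM in vehicle control and 2.66 and 3.36 FPKM with MGH-CP1 (log2 fold change −0.82, SE 0.10, limma adjusted p = 0.000447). POLD4, the smallest subunit of polymerase delta, moved against POLD1, POLD2 and POLD3, from 0.920 and 0.918 FPKM in vehicle control to 3.59 and 3.49 FPKM with MGH-CP1 (1.24, SE 0.10, adjusted p = 6.98e-05). Its vehicle control level was under the 1 FPKM minimum, so it entered the test through its MGH-CP1 values. The helicase DDX11 was also called higher (0.19, adjusted p = 0.0325), and that call was lost with any library left out and under median-ratio scaling.

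The chromatin assembly and cohesion list acts on the new strands behind the fork. For it and the lists that follow, the shares of all genes tested were again 23.8% lower and 27.1% higher. It had 14 of 16 genes called lower (87.5%) and 0 higher, led by the cohesion factors CDCA5 and ESCO2 (log2 fold changes −0.93 and −0.93). Of 11 tested genes that control licensing, 9 were called lower and 0 higher, with CCNA2, cyclin A2, at −1.06 and DTL, an adaptor of the CDT1 ubiquitin ligase, at −0.83. RBX1, at 0.314 to 0.742 FPKM, was below the minimum. In the supply of deoxynucleotides 8 of 10 genes were called lower and 0 higher, with the ribonucleotide reductase subunit RRM2 at −1.10 and thymidylate synthase TYMS at −0.94.

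The replication checkpoint had 6 of 10 genes called lower (60.0%, against 23.8% of all genes tested), among them CDC25A at −0.85 and CHEK1 at −0.50. RAD9A, a subunit of the checkpoint clamp, was the only one called higher (10.0% of the list, against 27.1%), at 0.26. Repair and bypass polymerases with their helpers were split: 6 of 12 were called lower, with the ubiquitin ligase RAD18 at −0.77, and POLL, POLM and POLI were called higher, at 0.54, 0.46 and 0.39. The share of the list called higher, 25.0%, was near the 27.1% of all genes tested. By contrast all 10 proliferation markers were called lower, including MKI67 (−1.28) and CENPF (−1.09). Their median was −0.83 on the log2 scale, beside −0.64 for the 50 replication genes. The part of the markers' fall in the fall of the replication genes was not tested.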

How the data were processed

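Poly(A) RNA of 2 vehicle control and 2 MGH-CP1 samples was sequenced, and the authors deposited FPKM per gene, with gene lengths, in 1 table. The submitters' processing notes name CASAVA 1.8, STAR and hg19, and the annotation and counter are not given in the sources used here. FPKM divides by each library's own total. FPKM times length gave whole fragments for 100.0% of values (within 0.02 fragment), from which depth was taken. Columns were matched to samples by condition and replicate number.

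Genes averaging at least 1 FPKM over the 4 libraries were tested on log2(FPKM + 1) with limma 3.58.1 in R 4.3.3 (empirical Bayes with trend, two-sided, Benjamini-Hochberg, threshold 0.05). Fold changes on this scale understate those of low genes. The code was tested on simulated data. An exact permutation test of 2 against 2 cannot go below p = 0.333, so none was used. The members and gene lists were chosen with earlier results of these data known. Every member is named. The 2 of greatest absolute fold change in each group, and each member not called, are given with all values. Of the other lists, the 2 called genes of greatest absolute fold change and those called against the list's commoner direction are named, and genes named for comparison outside this rule were chosen after their values were seen. PRIMPOL was matched by its identifier, CHTF8 and CKS1B by their row with more fragments, and PECAM1 was not matched. Promoters came from RefSeq (GRCh38.p14), hg19 coordinates from the table, and the 2 builds were not mixed. Alternatives were other pseudocounts, filters, scalings and variance models, voom, a replicate block and leaving out each library.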

Additional observations from a re-analysis of the deposited data

How the results depend on the processing

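The count of replication genes called lower stayed at 46 in 12 of the 14 alternatives. It was 42 with no filter on low values, where CDC7, PRIM1, POLD1 and TIPIN had adjusted p of 0.0644, 0.0503, 0.0906 and 0.0676, and 0 when limma's variance was not shared between genes, which leaves 2 residual degrees of freedom. Under that last setting 43 of the 50 had an unadjusted p under 0.05, the smallest adjusted p was 0.0549, and all genes gave 4 called lower and 9 higher. Without the filter, all genes called lower were 1844 against 2869. No alternative called any of the 50 higher, and the median ranged from −0.60 (without MGH-CP1 replicate 1) to −0.69 (median-ratio scaling). The sign of 2 uncalled genes turned: ORC4 was 0.0043 with totals that leave out mitochondrial genes and −0.045 to 0.023 with 1 library left out, and RPA3 was −0.11 to 0.074 with 1 library left out. A lone library was then assumed to vary like the other group. The replicate numbers are shared between groups, and whether they pair the samples is not known. The replicate differences of the groups had a correlation of 0.0777 over genes, which cannot settle this. With the replicate block, 46 genes were again lower, and all genes gave 3052 lower and 3466 higher. RAD9A lost its call with no filter and without vehicle control replicate 1 or MGH-CP1 replicate 1, and POLI with no filter and without vehicle control replicate 1. With no filter the repair and bypass polymerases had 3 lower and 1 higher. POLM and CD14 also lost their calls in that setting (limma adjusted p = 0.0754 and 0.0968). Every replication gene had at least 155 fragments in each library, and 2 libraries per group limit every interval here.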
